A study of Mus musculus with 8 samples.

Results

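Mitochondrial carriers of the SLC25 family were examined in liver tumours of mice that overexpress human c-MYC, with normal mouse livers as the controls. Members were the genes whose symbol begins with Slc25a and a number, the uncoupling protein genes Ucp1 to Ucp3, the pyruvate carrier genes Mpc1 and Mpc2, and the carrier homologue genes Mtch1 and Mtch2. Of 54 such genes in the RefSeq gene table, 51 were measured, out of 19937 genes tested in all, while the other 3 were not analysed here. The genes were chosen by name and not by their values. The tumours (c-MYC liver tumour, 4 arrays) carried liver-specific overexpression of human c-MYC through the CEBPB-LAP promoter under doxycycline control, and were collected at the humane endpoint. The controls (Control Liver, 4 arrays) were normal livers of matched mice. The labels give neither age, strain and sex, nor the doxycycline schedule, nor whether the tumours came from separate animals, so p-values measure the spread between these samples.

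SLC25 carriers are small proteins that fold around a central pore and sit, for the most part, in the inner mitochondrial membrane. They exchange nucleotides, phosphate, organic acids, amino acids and cofactors between the cytosol and the matrix. In liver they link the matrix to the urea cycle, gluconeogenesis, fatty acid oxidation and lipid synthesis, pathways whose steps lie on both sides of that membrane.

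Each value is a log2 value of 1 probe set on 1 array, and log2 changes are tumours minus controls with the SE from limma. A member was called higher or lower at an adjusted p below 0.05 over all genes. The share of members called was close to that of all genes. Of the 51 members 6 were higher and 9 were lower in tumours, and 36 did not pass. That is 29.4% of members called, against 28.9% of all genes tested, and in each direction 11.8% of members were higher and 17.6% lower, against 16.2% and 12.7% of all genes. At an unadjusted p below 0.05 there were 23 members (45.1%), most of them lower, against 37.7% of all genes (20% higher and 17.8% lower). The median log2 change was -0.09 over the members and -0.04 over all genes. Changes of at least 2-fold were found for 2 members above (Slc25a4 and Slc25a36) and 4 below (Slc25a21, Slc25a25, Slc25a23 and Slc25a16), where 5.54% and 4.68% of all genes passed the same rule, or 10.2% in either direction. Tumours and controls did not overlap for 15 members, or 29.4%, against 30.2% of all genes.

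**Figure D1:**
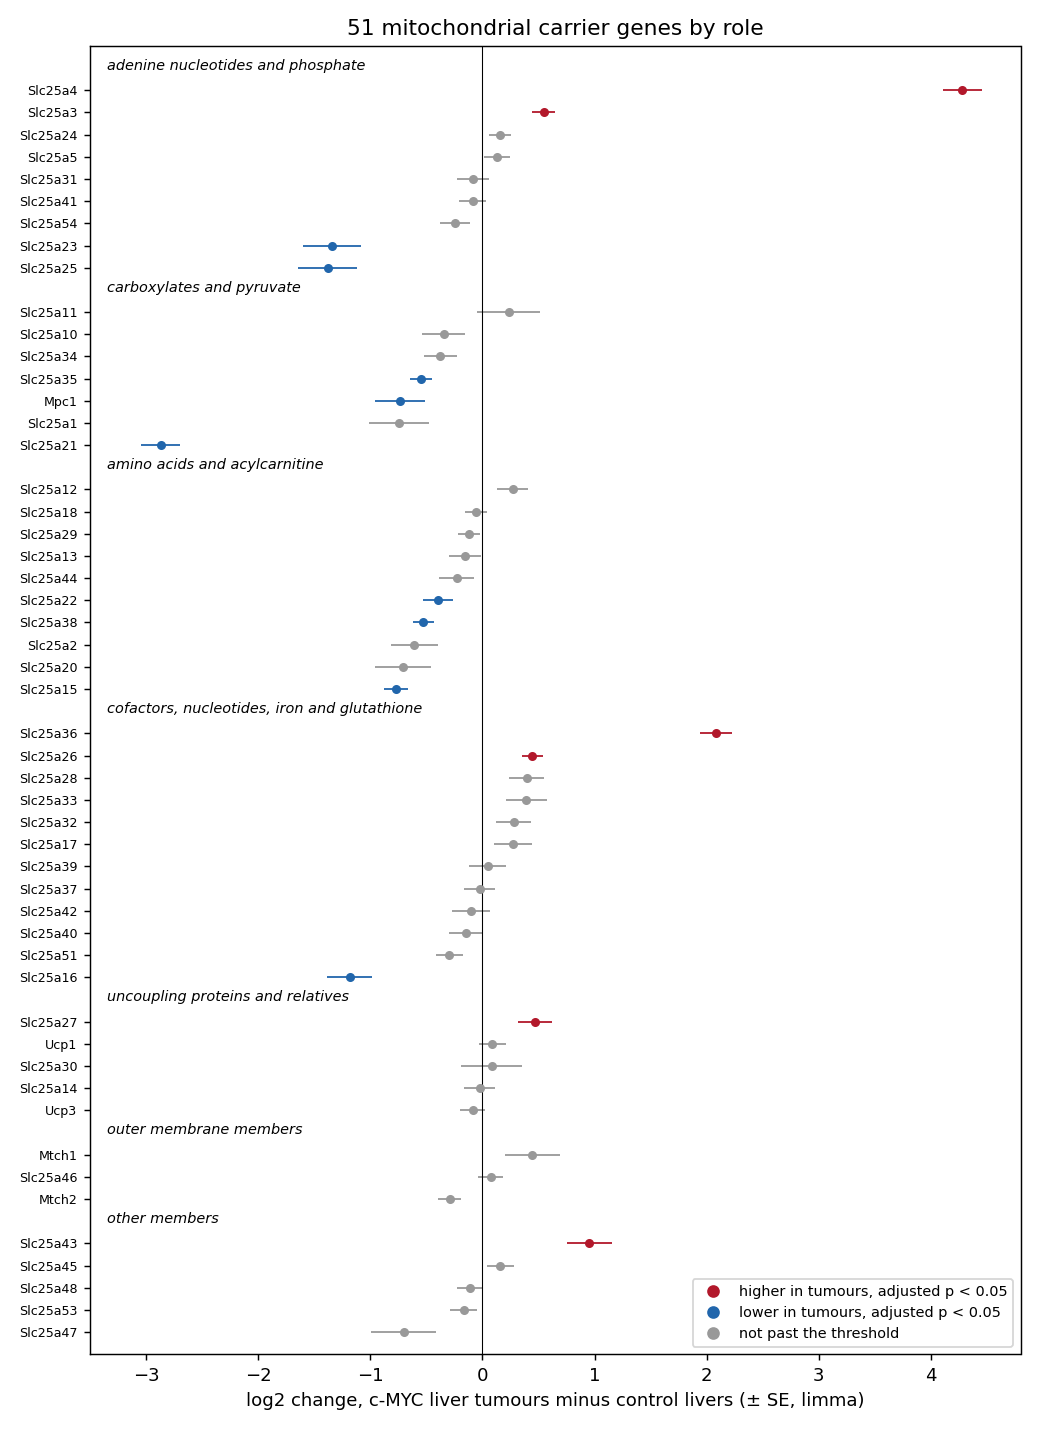
Log2 change (c-MYC liver tumours minus control livers, ± SE from limma, 4 arrays each) of the 51 measured members, grouped by the kind of substrate. Red points are the 6 members called higher, blue points the 9 called lower and grey points the other 36; Slc25a4 at 4.28 and Slc25a21 at -2.87 lie at the ends of the range.

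The correlation of arrays over all genes averaged 0.983 within tumours and 0.976 within controls, against 0.882 between the groups. Control Liver 3 stood apart in sex-linked genes: Xist read 11.89 there and 4.86 to 7.12 on the other arrays, while 3 Y-linked genes read 3.46 to 5.39 there and at least 7.62 elsewhere. Without it 6 members were higher and 9 lower, where 15.1% and 11.2% of all genes passed. Tumour 4 was the lowest tumour for 23 of the 51 members (45.1%, against 24.5% of all genes), and Control Liver 4 the highest control for 20 of them (39.2%, against 22.6%). Tumour 4 was also the highest tumour for 42.4% of all genes and 23.5% of members, so it stood apart beyond the carriers. Without tumour 4 the counts were 5 members higher and 8 lower, where 16.4% and 12.8% of all genes passed. Without Control Liver 4 they were 7 and 11, where 15.1% and 11.6% of all genes passed. Of the marker lists, the 5 measured hepatocyte markers were lower in tumours, with a mean level of 10.34 to 10.66 in tumours and 11.91 to 12.26 in controls. Most of that gap came from Tat (log2 change -5.71), while Alb, Ttr, Apoa1 and Hnf4a changed by -0.54 to -0.33 and the list's median was -0.53. All 4 proliferation markers were higher (9.11 to 9.65 in tumours and 5.52 to 6.11 in controls). The 8 macrophage and Kupffer cell markers lay at 7.43 to 7.99 in tumours and 7.28 to 8.21 in controls, with 2 higher and 2 lower. The higher were Lyz2 (log2 change 2.61) and Cd68 (2.11), and the lower Vsig4 (-2.38) and Clec4f (-1.75). The 6 endothelial markers lay at 6.82 to 7.26 in tumours and 7.04 to 7.69 in controls, with 3 lower. The 7 stellate and fibroblast markers lay at 6.59 to 6.83 in tumours and 6.96 to 7.16 in controls, with 1 higher and 2 lower. The 5 lymphocyte markers (5.35 to 5.47 in tumours and 5.24 to 5.66 in controls), the 4 erythroid markers (6.30 to 6.64 in tumours and 6.50 to 6.72 in controls) and the 5 skeletal muscle markers (6.13 to 6.33 in tumours and 6.10 to 6.27 in controls) had none past the threshold. The 4 bile duct markers lay at 6.06 to 6.46 in tumours and 6.08 to 6.21 in controls, with 1 higher and 1 lower. The 5 adipocyte markers lay at 6.08 to 6.38 in tumours and 5.68 to 6.09 in controls. Of the latter, 1 was higher (Fabp4, log2 change 2.64) and 1 lower (Adipoq, -0.42). In bulk tissue, fewer cells of a type and less RNA per cell cannot be told apart, and the part of cell makeup in the changes below was not tested.

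The promoters of 3 members are shown because these genes had the largest changes: Slc25a4 and Slc25a36 among the rises and Slc25a21 among the falls. Each run is the 250 bases before the RefSeq start of the gene (build GRCm38.p6, all on the minus strand, 5′ to 3′). Capitals mark CACGTG, the E-box to which MYC and MAX bind, and the variant CACGCG in either orientation. Slc25a4 lies at chr8:46211063-46211312, Slc25a36 at chr9:97111042-97111291 and the more upstream of 2 listed starts of Slc25a21 at chr12:57197473-57197722.
Slc25a4: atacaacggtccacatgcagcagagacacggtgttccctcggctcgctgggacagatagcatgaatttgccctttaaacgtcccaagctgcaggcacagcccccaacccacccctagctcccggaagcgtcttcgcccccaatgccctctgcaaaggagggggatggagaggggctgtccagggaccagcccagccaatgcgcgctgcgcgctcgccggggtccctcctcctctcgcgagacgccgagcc
Slc25a36: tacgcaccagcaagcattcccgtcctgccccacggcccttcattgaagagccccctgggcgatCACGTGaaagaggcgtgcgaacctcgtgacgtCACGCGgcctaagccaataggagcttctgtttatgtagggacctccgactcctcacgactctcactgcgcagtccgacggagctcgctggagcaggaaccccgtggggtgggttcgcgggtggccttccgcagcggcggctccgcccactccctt
Slc25a21: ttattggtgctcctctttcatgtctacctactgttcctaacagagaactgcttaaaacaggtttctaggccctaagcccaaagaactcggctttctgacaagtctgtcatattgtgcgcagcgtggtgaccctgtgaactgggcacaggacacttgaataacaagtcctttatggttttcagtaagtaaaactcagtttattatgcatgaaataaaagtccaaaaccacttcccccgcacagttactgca
The printed window of Slc25a36 holds 1 E-box, starting at position -187 from the gene start, and 1 variant at -155. The printed windows of Slc25a4 and Slc25a21 hold neither. CpG dinucleotides numbered 18 in the Slc25a4 window and 24 in that of Slc25a36, against 4 in that of Slc25a21.

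The ADP/ATP carriers, which bring ADP into the matrix and ATP out, moved very unequally. Slc25a4, the isoform known mainly from heart and skeletal muscle, read 11.73, 11.79, 11.86 and 11.70 in the tumours, against 6.98, 7.39, 7.92 and 7.68 in the control livers. Every tumour lay above every control by a wide margin, and the 4 tumours were close together. Its mean was 11.77 ± 0.07 in tumours and 7.49 ± 0.41 in controls (SD, n = 4 each), a 19.4-fold rise (log2 change 4.28, SE 0.18, adjusted p = 8.1e-08 in limma). The 5 skeletal muscle markers did not pass the threshold in these arrays, and their log2 changes had a median of 0.04. The part of muscle cells in the change of Slc25a4 was not tested.

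Slc25a5, the isoform known from liver and dividing cells, read 12.94, 12.67, 12.67 and 12.62 in tumours, against 12.54, 12.56, 12.84 and 12.45 in controls. These values overlapped, and the change did not pass (log2 change 0.13, SE 0.12, adjusted p = 0.485 in limma). They also lay near the highest value on any array, 13.56. Slc25a5 had 2 further probe sets, with log2 changes of 0.26 and 0.77. On the first of these the tumours (11.62 to 11.79) lay above the controls (11.34 to 11.56), while on the other they overlapped (9.14 to 10.26 in tumours and 8.90 to 9.52 in controls). With the mean of the 3 probe sets Slc25a5 passed (log2 change 0.38, adjusted p = 0.0444 in limma). The gene table lists a pseudogene, Slc25a5-ps, and whether any probe set reads it was not tested. Slc25a31, the testis isoform, stayed at 3.48 to 4.05 in tumours and 3.58 to 4.05 in controls.

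Slc25a3, the carrier of the phosphate used in ATP synthesis, read 10.79, 10.74, 10.84 and 10.59 in tumours, against 10.03, 10.16, 10.21 and 10.39 in controls. All tumours lay above all controls. The rise was 1.46-fold (log2 change 0.55, SE 0.11, adjusted p = 0.0027 in limma).

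The calcium-regulated ATP-Mg/phosphate carriers set the adenine nucleotide pool of the matrix, and 2 of them were lower in tumours. Slc25a25 read 5.75, 5.64, 5.81 and 5.83 in tumours, against 7.40, 6.87, 6.39 and 7.89 in controls. The tumours were nearly equal and the controls spread over more than a log2 unit, with no overlap. Its mean was 5.76 ± 0.08 in tumours and 7.14 ± 0.65 in controls (SD, n = 4 each), 2.60-fold lower (log2 change -1.38, SE 0.26, adjusted p = 0.0025 in limma). Slc25a23 read 7.68, 7.41, 7.46 and 6.74 in tumours, against 8.53, 8.51, 8.22 and 9.39 in controls. Tumour 4 was the lowest and Control Liver 4 the highest, yet the groups stayed apart without either (log2 change -1.34, SE 0.26, adjusted p = 0.0027 in limma). It ran between -1.49 and -1.10 when any 1 array was left out.

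Slc25a24, the third calcium-regulated isoform, read 5.40, 5.24, 5.59 and 5.39 in tumours, against 5.32, 5.19, 5.30 and 5.18 in controls (log2 change 0.16, SE 0.10, adjusted p = 0.295 in limma). The control mean of Slc25a24, 5.25, lay within the range of the Y-linked genes in Control Liver 3, so a level above background is not shown there. Its tumour mean, 5.41, lay barely above the top of that range, 5.39. Slc25a41, a relative without the calcium-binding part, and Slc25a54, listed in the gene table as SCaMC-1like, changed by -0.09 and -0.24 and did not pass. Slc25a54 lay at that low level in both groups, with means of 4.01 in tumours and 4.25 in controls, as did Slc25a31, Ucp1 and Slc25a53.

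**Figure D2:**
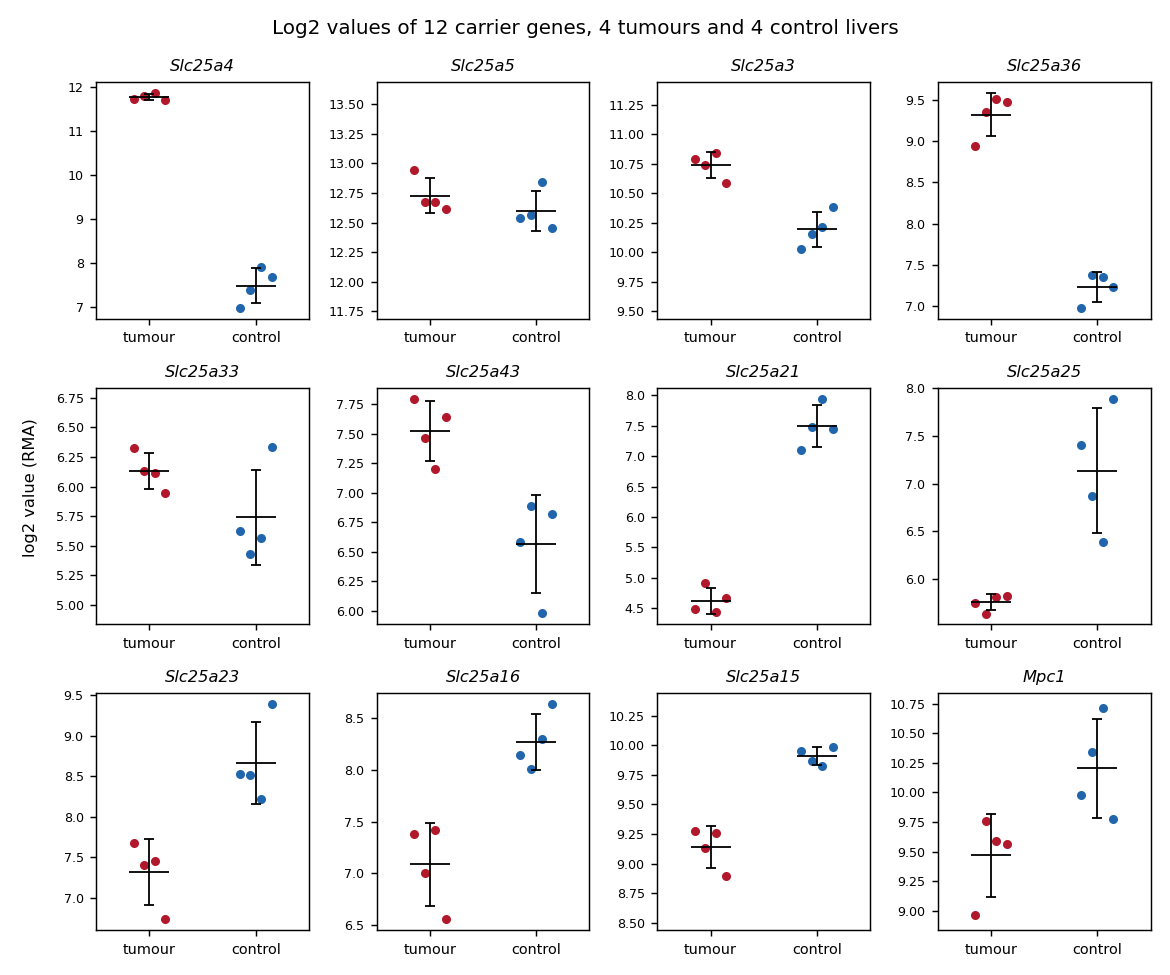
Log2 values of 12 members on each array, with c-MYC liver tumours at the left and control livers at the right of each panel, each panel on its own scale. Each point is 1 array, and bars mark mean ± SD (n = 4). The groups did not overlap for Slc25a4, Slc25a3, Slc25a36, Slc25a43, Slc25a21, Slc25a25, Slc25a23, Slc25a16, Slc25a15 and Mpc1, and overlapped for Slc25a5 and Slc25a33.

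Among 7 measured carriers of carboxylates and pyruvate, 3 were lower in tumours and none higher, where 12.7% and 16.2% of all genes passed. At an unadjusted p below 0.05 there were 5, all of them lower, against 17.8% of all genes. Slc25a21 carries oxodicarboxylates such as 2-oxoadipate, an intermediate of lysine and tryptophan breakdown. It read 4.48, 4.91, 4.45 and 4.66 in tumours, against 7.11, 7.48, 7.95 and 7.45 in controls. The groups lay more than 2 log2 units apart. Its mean was 4.62 ± 0.21 in tumours and 7.495 ± 0.34 in controls (SD, n = 4 each), 7.31-fold lower (log2 change -2.87, SE 0.17, adjusted p = 9.2e-07 in limma). The tumour mean lay within the range of 3 Y-linked genes in Control Liver 3 (3.46, 5.39 and 3.87), so a level above background is not shown there. This fold may therefore be a limit, and its exact size is uncertain.

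Mpc1 encodes a subunit of the pyruvate carrier, the entry of pyruvate into the matrix. It read 8.96, 9.76, 9.59 and 9.56 in tumours, against 9.98, 10.34, 10.71 and 9.77 in controls. The groups just missed touching, with 9.76 in tumour 2 and 9.77 in Control Liver 4. The log2 change of Mpc1 was -0.73 (SE 0.22, adjusted p = 0.0305 in limma). The call was lost without tumour 1 (adjusted p = 0.0802), tumour 3 (0.051), tumour 4 (0.0519), Control Liver 2 (0.0805) or Control Liver 3 (0.0703).

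Slc25a35, whose substrate is less well established, was lower in all tumours at 4.95, 4.96, 4.94 and 5.13, against 5.64, 5.59, 5.35 and 5.60 in controls (log2 change -0.55, SE 0.10, adjusted p = 0.0017 in limma). Its tumour mean was also at the low level of the Y-linked genes. The related Slc25a34 read 5.34, 5.64, 5.18 and 5.63 in tumours, against 5.49, 5.98, 5.90 and 5.91 in controls, and overlapped (log2 change -0.38, adjusted p = 0.0816 in limma). Without Control Liver 1, the lowest control, Slc25a34 passed (adjusted p = 0.0248).

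Slc25a1 exports citrate for fatty acid and sterol synthesis. It read 8.20, 7.60, 7.38 and 6.99 in tumours, against 8.11, 8.08, 7.999 and 8.95 in controls. Tumour 1 overlapped the controls, and the change did not pass (log2 change -0.74, SE 0.27, adjusted p = 0.0636 in limma). Without tumour 1 it was -0.96 and passed (adjusted p = 0.0163), as it did with quantile normalisation (0.0322). Slc25a10, which exchanges malate and succinate for phosphate, read 7.27, 6.62, 6.84 and 6.93 in tumours, against 6.97, 7.17, 7.11 and 7.79 in controls (log2 change -0.35, adjusted p = 0.216 in limma). Slc25a11, the oxoglutarate/malate carrier of the malate-aspartate shuttle, read 8.64, 8.49, 8.91 and 7.57 in tumours, against 8.01, 7.75, 8.22 and 8.69 in controls. Tumour 4 lay below every control and Control Liver 4 above 3 of the 4 tumours, and the change of Slc25a11 did not pass (log2 change 0.23, SE 0.28, adjusted p = 0.607 in limma).

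Of 10 carriers of amino acids and acylcarnitine, 3 were lower and none higher, a share called of 30% against 28.9% of all genes. At an unadjusted p below 0.05 there were 5, all of them lower, against 17.8% of all genes. Slc25a15, the ornithine/citrulline exchanger of the urea cycle, read 9.27, 9.13, 9.26 and 8.89 in tumours, against 9.96, 9.87, 9.82 and 9.99 in controls. Controls were tight and all tumours lay below them. The fall was 1.70-fold (log2 change -0.77, SE 0.11, adjusted p = 0.00031 in limma). Slc25a2, a second ornithine carrier, read 5.61, 5.51, 5.66 and 6.09 in tumours, against 6.82, 6.56, 5.88 and 6.03 in controls. Tumour 4 overlapped the controls, and Slc25a2 did not pass (log2 change -0.61, SE 0.21, adjusted p = 0.0534 in limma). It passed without tumour 4 (adjusted p = 0.0318), Control Liver 3 (0.019) or Control Liver 4 (0.0423).

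Slc25a38, a glycine carrier needed for heme synthesis, was also lower, at 6.63, 6.49, 6.59 and 6.51 in tumours, against 7.07, 6.95, 7.09 and 7.22 in controls (log2 change -0.53, SE 0.09, adjusted p = 0.0015 in limma). No tumour reached the lowest control. Slc25a22, a glutamate carrier, read 6.56, 6.13, 6.23 and 6.13 in tumours, against 6.68, 6.52, 6.51 and 6.92 in controls. Tumour 1 overlapped the controls. The log2 change of Slc25a22 was -0.40 (SE 0.13, adjusted p = 0.0454 in limma). It lost its call under 9 of 15 alternatives (a test against a 1.5-fold change apart), with quantile normalisation (0.063) and median centring (0.0812) among them. Leaving out tumour 2, 3 or 4 or Control Liver 1, 2 or 4 also ended it (adjusted p between 0.0535 and 0.115). The other glutamate carrier, Slc25a18, read 6.37, 6.42, 6.44 and 6.56 in tumours, against 6.37, 6.64, 6.59 and 6.43 in controls (log2 change -0.06, adjusted p = 0.706 in limma).

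The aspartate/glutamate carriers of the malate-aspartate shuttle gave small changes that did not pass. Slc25a12, known as aralar, read 7.66, 7.79, 7.83 and 7.35 in tumours, against 7.59, 7.10, 7.49 and 7.37 in controls (log2 change 0.27, adjusted p = 0.193 in limma). Slc25a13, or citrin, the main liver isoform, read 8.99, 9.57, 9.45 and 8.97 in tumours, against 9.44, 9.33, 9.37 and 9.46 in controls (log2 change -0.15, adjusted p = 0.499 in limma). Tumours 1 and 4 were below all controls for Slc25a13, and tumour 2 above them.

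Slc25a20, the carnitine/acylcarnitine exchanger through which long-chain fatty acids reach oxidation, read 8.05, 8.22, 7.98 and 7.53 in tumours, against 8.22, 8.29, 8.70 and 9.42 in controls. All tumours lay below all controls, by a very small gap, and the change did not pass (log2 change -0.71, SE 0.25, adjusted p = 0.0576 in limma). Slc25a20 passed with quantile normalisation (adjusted p = 0.0264) and without Control Liver 1 (0.0334) or Control Liver 2 (0.0491). Slc25a44, a branched-chain amino acid carrier, and Slc25a29, a carrier of basic amino acids, changed by -0.23 and -0.12 and did not pass.

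Among 12 measured carriers of cofactors, nucleotides, iron and glutathione, 2 were higher and 1 lower. That is 16.7% higher and 8.33% lower, against 16.2% and 12.7% of all genes. Slc25a36, a pyrimidine nucleotide carrier, read 8.95, 9.35, 9.51 and 9.48 in tumours, against 6.98, 7.38, 7.36 and 7.23 in controls. The lowest tumour was more than 1 log2 unit above the highest control. Its mean was 9.32 ± 0.26 in tumours and 7.24 ± 0.18 in controls (SD, n = 4 each), a 4.24-fold rise (log2 change 2.08, SE 0.14, adjusted p = 2.4e-06 in limma). A second probe set of Slc25a36 also separated the groups (9.16 to 9.99 in tumours and 6.46 to 7.49 in controls, log2 change 2.66). Slc25a33, the other pyrimidine nucleotide carrier, read 6.33, 6.13, 6.12 and 5.95 in tumours, against 5.63, 5.43, 5.57 and 6.33 in controls. Control Liver 4 read as high as the highest tumour. The change of Slc25a33 did not pass (log2 change 0.39, SE 0.18, adjusted p = 0.148 in limma). Leaving out Control Liver 4 gave 0.59, which passed (adjusted p = 0.0045).

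Slc25a16, linked to coenzyme A uptake through its yeast relative, read 7.38, 7.002, 7.42 and 6.56 in tumours, against 8.15, 8.01, 8.30 and 8.64 in controls. No value overlapped, and the fall was 2.27-fold (log2 change -1.19, SE 0.20, adjusted p = 0.0012 in limma). Slc25a42, which carries coenzyme A in exchange for adenine nucleotides, changed by -0.10 (SE 0.17) and did not pass. Slc25a26, which brings the methyl donor S-adenosylmethionine into the matrix, read 7.22, 6.98, 7.29 and 7.20 in tumours, against 6.71, 6.70, 6.75 and 6.73 in controls. The controls were almost identical and all tumours lay above them (log2 change 0.45, SE 0.09, adjusted p = 0.0045 in limma).

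The iron, glutathione, folate and NAD carriers did not pass. Of the mitoferrins, Slc25a37 read 7.64, 7.90, 7.68 and 7.40 in tumours, against 7.57, 7.89, 7.45 and 7.81 in controls (log2 change -0.03). Slc25a28 read 8.20, 7.60, 7.83 and 7.55 in tumours, against 7.20, 7.40, 7.38 and 7.63 in controls (log2 change 0.39, adjusted p = 0.0852 in limma). Slc25a28 was lower in tumours 2 and 4 than in Control Liver 4 and otherwise higher than every control. The glutathione carrier Slc25a39 read 8.75, 8.31, 8.54 and 8.19 in tumours, against 8.06, 8.50, 8.29 and 8.76 in controls (log2 change 0.05). Its relative Slc25a40 read 7.23, 6.95, 7.36 and 7.43 in tumours, against 7.76, 7.25, 7.38 and 7.16 in controls (log2 change -0.15). Both overlapped throughout. Slc25a32, the folate and FAD carrier, and Slc25a17, of the peroxisome, changed by 0.28 and 0.27 and did not pass. Slc25a51, the NAD carrier, changed by -0.30 (adjusted p = 0.0973 in limma), and passed without Control Liver 4 (0.0481).

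Of 5 measured uncoupling proteins and relatives, 1 was higher (20%, against 16.2% of all genes). Slc25a27, also named Ucp4, read 6.76, 7.38, 7.28 and 7.02 in tumours, against 6.63, 6.74, 6.82 and 6.36 in controls. Tumour 1 overlapped the controls. The log2 change of Slc25a27 was 0.47 (SE 0.15, adjusted p = 0.0428 in limma), and the call was lost without tumour 2 (0.115), tumour 3 (0.117), tumour 4 (0.0576), Control Liver 1 (0.0819), Control Liver 2 (0.0631) or Control Liver 4 (0.108). Ucp1, the heat-producing carrier of brown fat, stayed low at 4.39 to 4.86 in tumours and 4.37 to 4.64 in controls. Ucp3, of muscle, read 5.36 to 5.75 in tumours and 5.47 to 5.78 in controls. Slc25a14 read 6.98, 6.59, 7.33 and 6.95 in tumours, against 7.04, 6.92, 7.01 and 6.99 in controls (log2 change -0.02). Slc25a30 read 6.68, 7.32, 7.27 and 6.60 in tumours, against 7.24, 6.05, 7.18 and 7.08 in controls (log2 change 0.08). Neither gene separated the groups.

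The 3 members of the outer mitochondrial membrane did not pass. Mtch2, which inserts proteins into that membrane, read 9.85, 9.97, 9.96 and 9.88 in tumours, against 10.23, 10.40, 10.17 and 10.02 in controls. All tumours lay below all controls, by a small amount (log2 change -0.29, SE 0.10, adjusted p = 0.0555 in limma). Mtch2 passed under 6 of the same 15 alternatives, quantile normalisation (0.0272) and leaving out Control Liver 4 (0.0305) among them, and its second probe set changed by -0.36. Mtch1 read 8.92, 8.33, 8.71 and 7.96 in tumours, against 7.78, 7.76, 7.92 and 8.68 in controls (log2 change 0.44, SE 0.25, adjusted p = 0.224 in limma). Control Liver 4 lay above tumours 2 and 4, and without it Mtch1 passed (log2 change 0.66, adjusted p = 0.0401). Slc25a46, which acts in mitochondrial shape, changed by 0.08 (SE 0.11).

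Of 5 further members, Slc25a43, an orphan carrier, was higher in tumours at 7.79, 7.46, 7.20 and 7.64, against 6.58, 6.89, 5.98 and 6.82 in controls. The groups did not overlap, and Control Liver 3 was the lowest array (log2 change 0.95, SE 0.20, adjusted p = 0.0046 in limma). The change was 0.76 when that array was left out. Slc25a47, a carrier known for its liver-specific expression, read 7.30, 7.92, 8.11 and 6.998 in tumours, against 8.30, 7.77, 8.09 and 8.98 in controls. Tumours 2 and 3 lay within the range of the controls, and the change did not pass (log2 change -0.70, SE 0.29, adjusted p = 0.104 in limma). Slc25a45, Slc25a48 and Slc25a53 changed by 0.16, -0.11 and -0.17 and did not pass.

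Several carriers come in pairs that move the same kind of substrate, and the change of 1 gene was compared with that of its partner. The difference between the log2 values of both genes was taken on each array and compared between tumours and controls, for 13 measured pairs of 14 listed. Such a test shows unequal change and does not compare levels. Of all single genes 30.2% did not overlap, and in 5 of the 13 pairs all tumours lay on 1 side of all controls. These were Slc25a5 minus Slc25a4 (difference of changes -4.15), Slc25a33 minus Slc25a36 (-1.69), Slc25a24 minus Slc25a25 (1.54), Slc25a24 minus Slc25a23 (1.502) and Slc25a12 minus Slc25a13 (0.42). The differences with Slc25a24 share that gene. They rest on a control level not shown to be above background and a tumour level barely above it. Their sizes are therefore uncertain. Each of the 5 pairs gave a two-sided exact permutation p of 0.0286, the smallest that 4 against 4 arrays can give. After adjustment over the 13 pairs it was 0.0743, so no pair passed. With only 5 pairs at the smallest p, none could pass this test however large its difference. With the pair differences added as rows to the limma fit, a choice made after seeing the data, the same 5 pairs passed an adjusted p of 0.05, from 7.6e-08 for Slc25a5 minus Slc25a4 (SE 0.17) to 0.0299 for Slc25a12 minus Slc25a13 (SE 0.13).

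The other 8 pairs overlapped and passed neither test. The ornithine carriers Slc25a2 and Slc25a15 differed in change by 0.16 (SE 0.24), the glutathione pair Slc25a39 and Slc25a40 by 0.19 (SE 0.26), and Slc25a34 and Slc25a35 by 0.18 (SE 0.16). As the tumour mean of Slc25a35 was at the low level of the Y-linked genes, the size of its pair difference is uncertain. Slc25a14 minus Slc25a30 gave -0.11 (SE 0.29). Larger differences that did not pass were found for Mtch1 minus Mtch2 (0.73, SE 0.29), Slc25a10 minus Slc25a11 (-0.58, SE 0.27), Slc25a37 minus Slc25a28 (-0.42, SE 0.17) and Slc25a22 minus Slc25a18 (-0.34, SE 0.17). Their adjusted exact permutation p lay between 0.159 and 0.206.

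**Figure D3:**
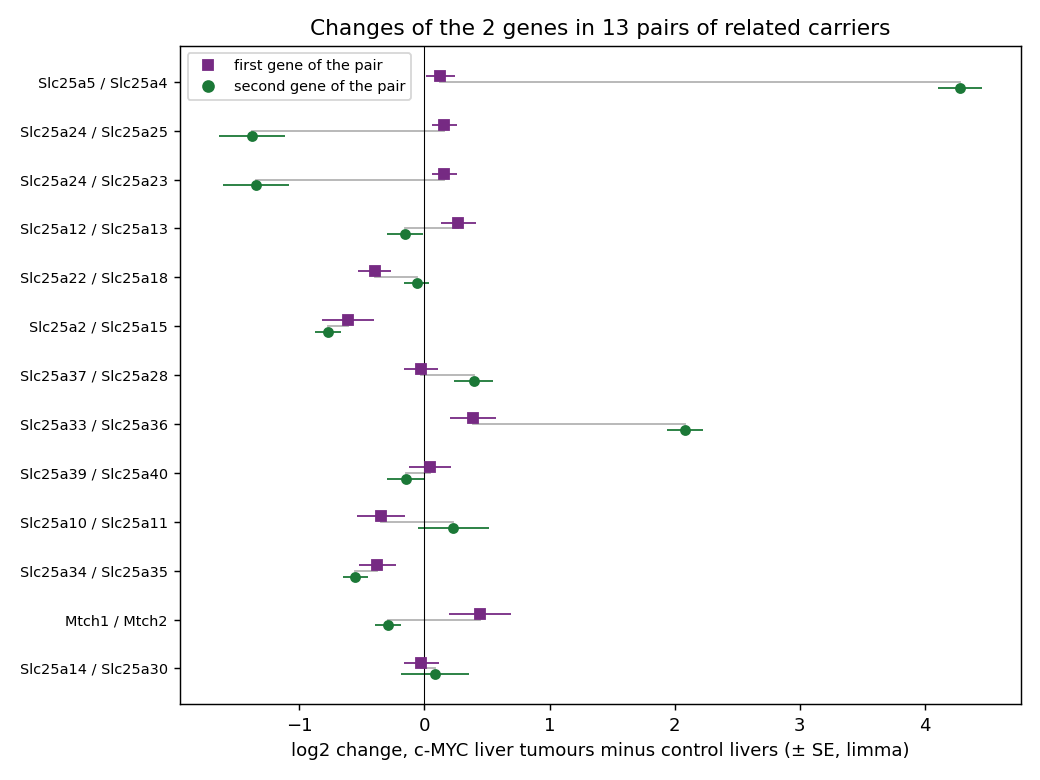
Log2 change (c-MYC liver tumours minus control livers, ± SE from limma, 4 arrays each) of both genes in 13 pairs of related carriers, with squares for the first and circles for the second gene named. The genes of the ADP/ATP pair lie farthest apart (-4.15, Slc25a5 minus Slc25a4), followed by the pyrimidine nucleotide pair (-1.69, Slc25a33 minus Slc25a36).

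Carriers are made in the cytosol and reach the inner membrane through the TOM pore, small TIM chaperones and the TIM22 complex. Of 16 listed genes of this import route 15 were measured, and 11 were higher in tumours and none lower, where 16.2% of all genes were higher. At an unadjusted p below 0.05 there were 12, all of them higher, against 20% of all genes. In 11 genes all tumours lay above all controls, against 16.3% of all genes. The median log2 change was 0.62, against -0.04 over all genes and -0.09 over the carriers themselves. Tomm5, a small subunit of the TOM complex, read 10.26, 9.53, 10.27 and 9.50 in tumours, against 7.501, 7.47, 7.82 and 7.87 in controls (log2 change 2.23, SE 0.20, adjusted p = 1.4e-05 in limma). Tomm20, a receptor of the complex, read 10.76, 10.38, 10.76 and 10.14 in tumours, against 8.23, 8.29, 8.52 and 8.57 in controls (log2 change 2.10, SE 0.15, adjusted p = 3.5e-06 in limma). All tumours were far above all controls for both genes, and tumour 4 was the lowest tumour for both. Tomm70a, the receptor to which carriers bind, rose by 0.55 (SE 0.12) and Timm22, the channel of the inner membrane, by 0.38 (SE 0.09).

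**Figure D4:**
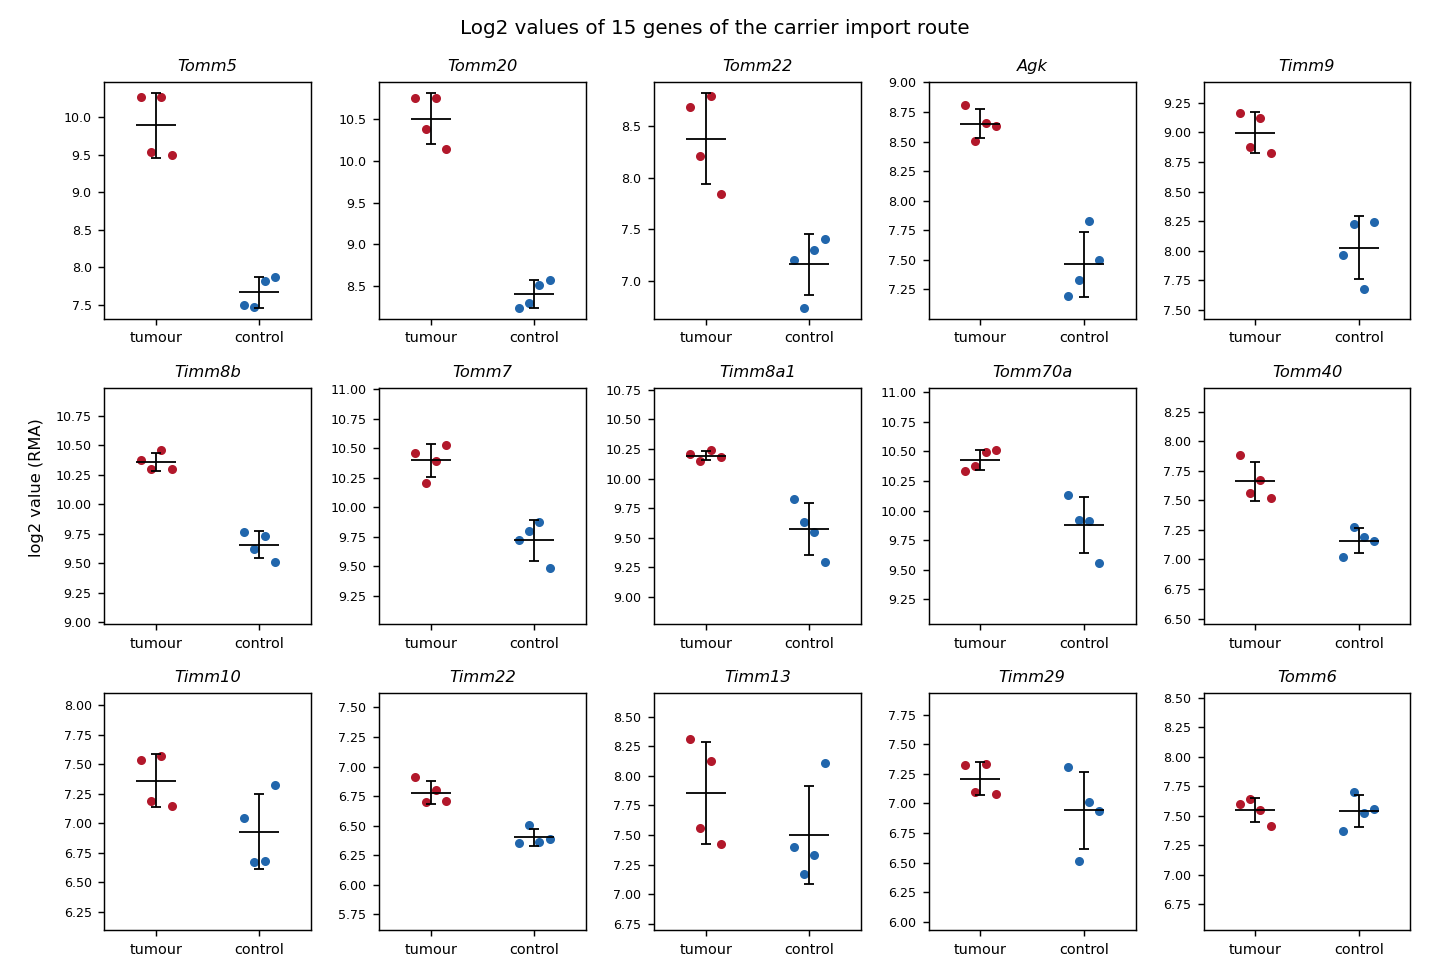
Log2 values of 15 genes of the carrier import route on each array, with c-MYC liver tumours at the left and control livers at the right of each panel, each panel on its own scale, ordered by log2 change. Each point is 1 array, and bars mark mean ± SD (n = 4). The groups did not overlap for 11 genes, Tomm5 (2.23) to Tomm70a, Tomm40 and Timm22 (0.38), and overlapped for Timm10, Timm13, Timm29 and Tomm6.

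Enzymes that make or use what the carriers move were mostly lower where they changed. Of 41 listed, 35 were measured, 3 were higher and 14 lower, with a median log2 change of -0.30, where 16.2% and 12.7% of all genes passed. Mthfd1l and Mthfd2, of the mitochondrial folate pathway, had log2 changes of 2.37 (SE 0.16) and 2.36 (SE 0.25) and passed. Slc25a32, which carries folate, changed by 0.28 and did not pass. Alas1, the first enzyme of heme synthesis, which uses glycine, changed by -2.54 (SE 0.37), beside -0.53 for the glycine carrier Slc25a38. Gclc, of glutathione synthesis, changed by -1.88 (SE 0.15), beside 0.05 for the glutathione carrier Slc25a39.

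The E-box was counted in the promoters of all members, in windows from 250 bases before to 50 bases after each RefSeq start. Windows were found for 41 of the 51 members, 53 windows in all. CACGTG, which reads the same on both strands, was present in 8 of the 53 windows (15.1%), against 7.15% of the 32851 windows in the table. By gene it was present for 7 of the 41 members (17.1%), against 8.09% of the 27025 genes with a window. These were 1 of 4 higher members (Slc25a36) and 1 of 8 lower members (Slc25a15). The rest were 5 of 29 members that did not pass (Slc25a1, Slc25a13, Slc25a14, Slc25a31 and Slc25a33). Overlapping windows of Slc25a14 held the same site, at -54 and -184 from different starts. The variant CACGCG, counted on both strands, was present in 9 windows (17.0%), against 9.27% of all windows. Member windows also held more CpG dinucleotides, with a median of 16 against 7 over all windows, and the part of base composition in these shares was not tested. A match is a stretch of letters and shows no binding.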

How the data were processed

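Total RNA was biotin-labelled and hybridised to Affymetrix mouse gene arrays, 1 per sample, per the labels' protocols. The table the authors deposited holds log2 values of 34760 probe sets. RMA (background correction, normalisation, summarisation) and R 3.0.2 are named in the submitters' processing notes, and a genome build is not given in the sources used here. No further scaling was applied, and array medians were 6.33 to 6.44. Precision is limited by the number of arrays.

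Probe sets with 1 gene symbol in the platform annotation (21640) were kept, with symbols updated by gene identifier from RefSeq, and the probe set with the highest mean was used per gene, leaving 19937 genes. Groups were compared with limma 3.58.1 (lmFit, eBayes) in R 4.3.3, with Benjamini-Hochberg adjustment over all genes. Exact permutation tests of pair differences used scipy 1.17.1, and plots matplotlib 3.10.9. Promoter sequences came from RefSeq (GRCm38.p6). The fit was tested on simulated data.

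The members, the lists of import genes, partner enzymes, markers and pairs, and the alternatives were chosen with earlier results of these data known. All members are accounted for. All 8 values are given for members changed at least 2-fold past the threshold and for both genes of each pair. They are also given for some others, with close calls among them, chosen after their values were seen. For the import and partner lists, the 2 largest changes past the threshold in each direction are named, with Tomm70a and Timm22 added for their role.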

Additional observations from a re-analysis of the deposited data

Results flagged for a closer look

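In 4 of the 102 groups of 4 values (51 members in tumours and in controls), 1 array lay far from the other 3 for the range of its group. Chance alone gives about 1 such flag in 20 groups. Slc25a35 read 5.13 in tumour 4, against 4.94 to 4.96 in the other tumours, at a level where background is not excluded. Slc25a1 read 8.95 in Control Liver 4, against 7.999 to 8.11 in the other controls. Slc25a30 read 6.05 in Control Liver 2, against 7.08 to 7.24 in the other controls. Slc25a34 read 5.49 in Control Liver 1, against 5.90 to 5.98 in the other controls.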

How the results depend on the processing

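Over 15 alternatives, not counting a test against a 1.5-fold change, 12 of the 15 called members kept their call, and Mpc1, Slc25a22 and Slc25a27 lost it under some. Another 10 members passed under some. Between 5 and 7 members were higher and between 7 and 11 lower when any 1 array was left out, with a median change from -0.12 to -0.07. In the same fits 13.9% to 16.4% of all genes were higher and 10.3% to 12.8% lower. With array weights 14 members were lower and 5 partner enzymes higher, and over all genes 15% were lower and 17.9% higher. Against a 1.5-fold change, 2 members were higher (Slc25a4 and Slc25a36), 1 was lower (Slc25a21), and 3 import genes were higher and 7 partner enzymes lower, where 4.83% of all genes were higher and 3.79% lower. With pair differences as rows of the limma fit 5 pairs passed, against none in the exact permutation tests. In the latter these 5 pairs already had the smallest p possible, 0.0286, which became 0.0743 after adjustment over 13 pairs. The causes of the other shifts were not tested. Changes near 0 turned sign. With quantile normalisation Slc25a31 was at 0.0102 and Slc25a39 at -0.0387, and with array weights Slc25a14 was at 0.058 and Slc25a37 at 0.0371. Leaving out 1 array at a time, Slc25a39 ran from -0.0675 to 0.16, Slc25a14 from -0.15 to 0.10, Slc25a37 from -0.11 to 0.0594, Slc25a30 from -0.20 to 0.21, Slc25a42 from -0.20 to 0.0794 and Ucp1 from -0.0054 to 0.15. Slc25a14 minus Slc25a30 ran from -0.23 to 0.15, Slc25a2 minus Slc25a15 from -0.0446 to 0.31 and Slc25a39 minus Slc25a40 from -0.0468 to 0.39. Same-numbered tumours and controls did not deviate together (correlations -0.06, 0.00, 0.05 and -0.32), so the numbers were taken as names. With the replicate number as a block 6 members were higher and 8 lower, where 14.3% and 10.8% of all genes passed. Slc25a22 lost its call with that block (adjusted p = 0.0721 in limma). Import genes (11 higher) and partner enzymes (3 higher, 14 lower) gave the same counts as in the main fit. Without dim genes 41 members were tested. Members at the level of the Y-linked genes in Control Liver 3 in only 1 group have folds that may be limits, and their sizes are uncertain. For those at that level in both groups (Ucp1, Slc25a31, Slc25a53 and Slc25a54) the size of the change is not known.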
